A study of Canis lupus familiaris with 28 samples.

Results

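Gene expression in the blood of 8 healthy dogs was read on 8 of the 28 arrays of the series, and the variation between these dogs is described here. Each array held 1 dog and was an Agilent canine array with 2 color channels. They were selected by their label as healthy dogs, and the other 20 arrays hold blood of dogs with atopic dermatitis (AD). The healthy dogs were adult blood donors of several breeds, and the labels give neither breed nor sex for a given dog. They carried no treatment in the labels, and the AD dogs are used here only as values set beside those of the healthy dogs. On every array the dog's RNA was labelled with Cy5, and a common reference, pooled in equal parts from the RNA of 13 further healthy dogs, was labelled with Cy3. A value is the log2 ratio of dog to reference, centered on the median of its array, so a value of 1 is a doubling against the pool. The dyes were not swapped, so a difference between dog and pool cannot be told apart from a bias of the dyes. Each dog gave 1 sample, and no second sample of a dog was analysed.

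The labels name the material as whole blood, while the study's methods describe the RNA as that of nucleated blood cells. Whole blood holds red cells, platelets, granulocytes, monocytes and lymphocytes, and each type adds its own transcripts to the RNA. Immature red cells (reticulocytes) still carry messages for heme synthesis and membrane proteins, platelets carry messages from the megakaryocytes that formed them, and cytotoxic lymphocytes carry those of granzymes. Interferons, released in response to viruses, switch on a set of antiviral genes in most cells of the blood. In such bulk samples a smaller number of cells of a type and less RNA in each cell cannot be told apart.

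The files hold 43603 probes, of which 29233 had a median processed dog signal above 100 over the 8 arrays. These stood for 11145 genes with a symbol, and a gene was represented by its brightest probe. A gene was eligible to be named when this probe was well above background in both channels on all 8 arrays, which held for 10950 genes. On the healthy arrays the dog's channel was well above background at 84.3% to 90.3% of probes, and 3 to 29 spots were marked as outliers. Healthy dogs 1 to 4 lay on slide 2 and dogs 5 to 8 on slide 3, so slide and dog cannot be told apart. Genes close to the limit on signal differed widely in spread. ATP10B, ATOH1 and NFIB, just above it, had standard deviations (SD) of 0.278, 0.391 and 0.855 between dogs, and LRRC8A, SRGAP2 and CLIC6, just under it, had 0.340, 0.205 and 0.687.

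The probes below belong to genes whose brightest probe was among the most variable between healthy dogs. Where only a dimmer probe is printed, the bases of the brightest one are not shown. The values of a gene come from its brightest probe, and a line marked as a dimmer probe is that of the second probe set beside it in the results. Sequences run 5′ to 3′, and positions are on the dog build canFam3 as the files state them, without exon, intron or UTR. The capitals in the OAS2 probes mark the 24 bases that both share. Where a gene has several probes, the line says which is printed.
EMR2, chr20:47929361-47929420, minus strand: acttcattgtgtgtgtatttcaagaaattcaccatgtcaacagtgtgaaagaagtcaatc
ATP6V1E2, chr10:48746518-48746577, minus strand: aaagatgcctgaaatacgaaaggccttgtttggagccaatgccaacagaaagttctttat
CEACAM23, dimmer probe, chr1:111724916-111724975, plus strand: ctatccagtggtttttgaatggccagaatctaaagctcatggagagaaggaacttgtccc
CMPK2, dimmer probe, chr17:4468301-4469938, minus strand: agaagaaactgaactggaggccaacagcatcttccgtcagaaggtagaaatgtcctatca
MX1, dimmer probe, chr31:35926713-35926772, plus strand: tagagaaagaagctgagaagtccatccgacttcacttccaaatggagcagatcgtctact
OAS2, brighter probe, chr26:10447681-10447740, plus strand: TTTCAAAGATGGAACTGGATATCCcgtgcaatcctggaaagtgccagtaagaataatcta
OAS2, dimmer probe, chr26:10447645-10447704, plus strand: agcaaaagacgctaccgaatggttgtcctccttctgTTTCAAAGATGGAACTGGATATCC
ISCA1, chr1:73481421-73481480, plus strand: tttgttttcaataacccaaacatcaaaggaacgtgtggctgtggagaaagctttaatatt
RAB15, dimmer probe, chr8:39331678-39331867, minus strand: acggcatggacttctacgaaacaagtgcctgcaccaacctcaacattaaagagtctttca
DAGLB, dimmer probe, chr6:11762191-11762250, minus strand: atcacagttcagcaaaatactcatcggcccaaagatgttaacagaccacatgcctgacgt

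The dog's channel varied more over the healthy arrays than the channel of the reference RNA. The reference RNA was the same on every array, so the SD of its channel over the 8 arrays is technical. The dog's channel also holds differences in blood sampling and RNA extraction. Dog RNA was always Cy5 and the reference always Cy3, so a difference in noise between the dyes cannot be told apart from spread between dogs. Over the kept probes the median SD of the dog's channel was 0.311 and that of the reference channel 0.17, both on the log2 scale. The dog's channel had the larger SD at 25924 probes (88.7%), and an SD at least 3 times that of the reference at 4712 (16.1%). The median SD of the log2 ratio was 0.295. On 35 kept probes printed on 5 spots each, the median SD between spots of an array was 0.0919 and that between dogs was 0.321. Spots of an array share a labelling and a hybridization, while dogs do not. The excess of the dog's channel was present at every level of signal when genes were divided into 5 classes of 2190 by brightness. In the dimmest class the median SD was 0.298 in the dog's channel and 0.225 in the reference channel, and in the brightest it was 0.315 and 0.155.

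**Figure D1:**
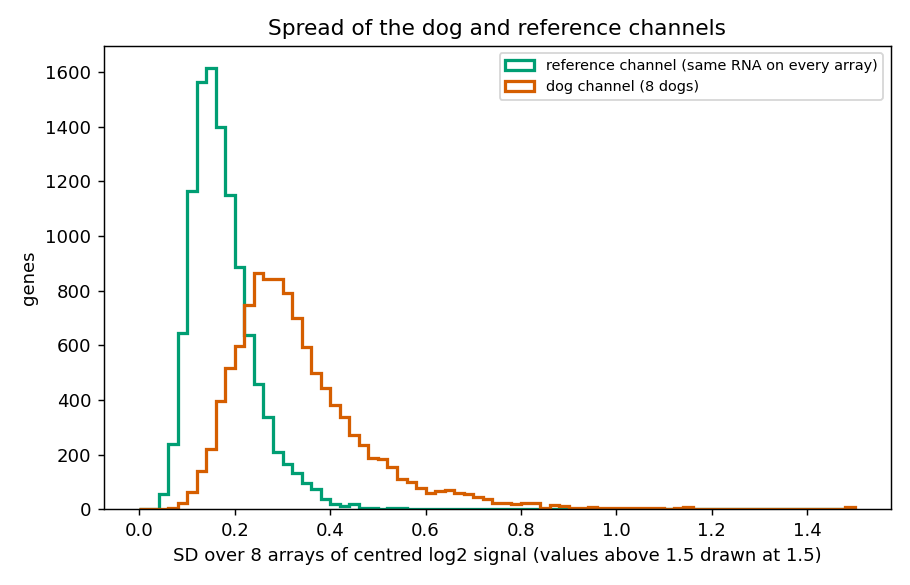
Histogram over the 10950 eligible genes of the SD over the 8 healthy arrays of the centered log2 signal (horizontal axis, log2 units, values above 1.5 drawn at 1.5; vertical axis, number of genes), with 1 outline for the reference channel and 1 for the dog's channel. The outline of the dog's channel lies to the right, with medians of 0.305 and 0.163, and the dog's channel had the larger SD for 9956 genes (90.9%).

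Among eligible genes the median SD of the log2 ratio was 0.29, with 5% of genes under 0.149 and 5% over 0.646. An SD above 1 was found for 66 of 10950 genes (0.603%), and 62 genes had an SD under 0.1. When the variance of each probe was set against that of probes of like brightness (one-sided F test against limma's robust trended prior, Benjamini-Hochberg adjustment), 0 of 29233 probes (0%) passed an adjusted p of 0.05. The adjusted p reached 0.122 at the lowest, and an unadjusted p under 0.05 was found at 1699 probes. On simulated data this test found 0 of 50 probes with 4 times the SD of the prior and 25 of 50 with 8 times. A probe at 4 times would thus have been missed. The order of genes by SD is therefore a description of these 8 dogs.

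The widest range was that of EMR2, an adhesion receptor of myeloid cells, with an SD of 2.26. Its log2 ratio was -3.38, -3.28 and -3.47 in dogs 1, 3 and 4 and 1.81, 0.59, 1.39, 0.21 and 0.36 in dogs 2, 5, 6, 7 and 8. The dogs thus formed a low group of 3, all on slide 2, and a high group of 5, and the highest dog was 38.8-fold above the lowest. The reference channel of this probe had an SD of 0.173. The SD was 7.9 times that of the prior, with an adjusted p of 0.46 in the F test. In AD dogs EMR2 ranged from -4.00 to 1.15, and 4 of 20 were under -2.

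ATP6V1E2, a subunit of the proton pump of acidic organelles, had an SD of 1.83. Its values were -1.99, 1.60, 0.18, 1.04, 0.98, -2.73, 0.66 and -2.87 in dogs 1 to 8, so dogs 1, 6 and 8 stood apart from the rest. CEACAM23, a member of the carcinoembryonic antigen family of cell surface proteins, had an SD of 1.79. It was -1.43, 2.55, -2.27, -1.89, 0.41, 0.65, 1.45 and -1.79 in dogs 1 to 8. Its dimmer probe, with a median signal of 91.6 and so under the limit, had an SD of 0.637 and followed the brighter probe with r = 0.76.

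DAGLB, a lipase that releases the endocannabinoid 2-arachidonoylglycerol, showed a division into groups of 6 and 2. Dogs 1, 2, 3, 4, 6 and 7 lay between -1.77 and -1.35, and dogs 5 and 8 were at 1.12 and 1.45. The other DAGLB probes followed the brightest one with r = 0.999 and 0.88, and the former, printed above, was at most -0.70 in the same 6 dogs and 1.31 in dog 8. In AD dogs 7 of 20 were above 0, with a range of -2.57 to 1.47. RAB15, a small GTPase of endosome recycling, was 2.74 and 2.75 in dogs 3 and 4 and at most 0.77 in the others. Here the probes disagreed: the dimmer RAB15 probe printed above, which spans more than its 60 bases on the genome, had an SD of 0.103 and r = -0.17 with the brightest.

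SYTL4, a protein that tethers secretory granules, was 3.06 in dog 5 and at most 1.24 in the other 7, with an SD of 1.66. Its other kept probe did not follow it (r = 0.085) and had an SD of 1.01. PKIG, an inhibitor of protein kinase A, was 1.56 in dog 1 and -2.68, -2.04 and -2.03 in dogs 5, 2 and 6, and its other probe followed with r = 0.965. ACTA2, the actin of smooth muscle, ranged from -2.03 in dog 2 to 2.31 in dog 4. Of the 15 genes with the highest SD, 8 had another kept probe, and 7 of these 9 other probes had r above 0.8 with the brightest.

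**Figure D2:**
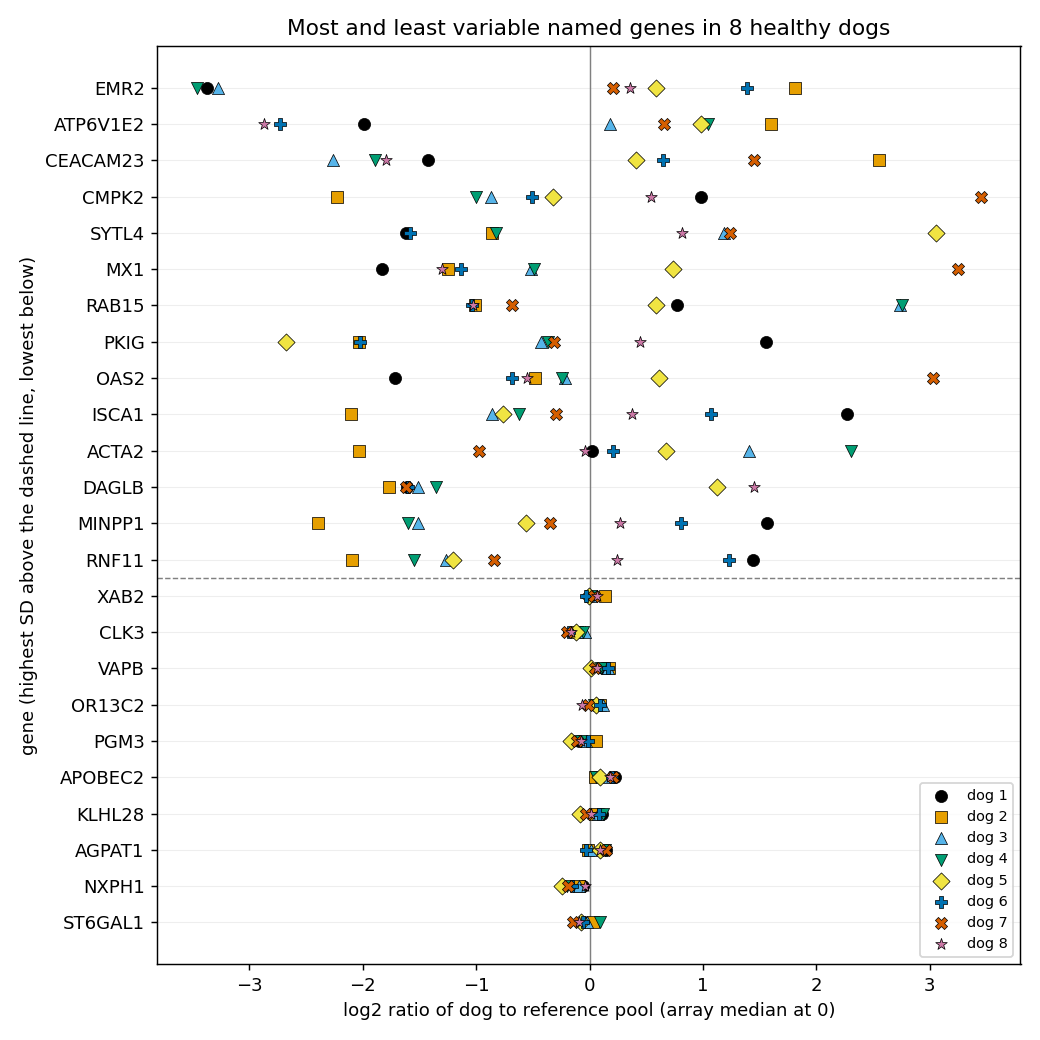
Log2 ratio of dog to reference pool (horizontal axis, array median at 0) for 14 of the 15 eligible genes with the highest SD and the 10 with the lowest, with 1 symbol for each of the 8 healthy dogs. EMR2 and DAGLB divide the dogs into groups far apart, MX1, OAS2 and CMPK2 are highest in dog 7, and the 10 least variable genes lie close to the array median in every dog.

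The interferon response list varied most of the 19 lists of marker genes. It had 27 measured members of 36 listed, their median SD was 0.779 against 0.29 over all eligible genes, and their median pairwise r was 0.655 against -0.009. A list level is the mean over members of the log2 ratio minus the gene's mean over the 8 dogs. This level was 1.58 in dog 7 and between -0.48 and -0.01 in the other 7 dogs. In 23 of the 27 members the highest value was that of dog 7. Of the 66 genes with an SD above 1, 9 were on this list.

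CMPK2, a mitochondrial nucleotide kinase induced by interferon, was 3.46 in dog 7, 0.99 in dog 1 and 0.54 in dog 8, and between -2.23 and -0.32 in the other 5. MX1, a GTPase that blocks viral replication, was 3.25 in dog 7, 0.74 in dog 5 and at most -0.49 in the others. The dimmer probes of both genes, printed above, also had their highest values in dog 7, at 3.38 for CMPK2 and 2.26 for MX1, where the MX1 probe had a median signal of 97 and so lay under the limit. OAS2, an enzyme that starts the decay of viral RNA, was 3.03 in dog 7 and -1.71 to 0.61 in the rest. The OAS2 probes share 24 bases and gave r = 0.998. ISG15, a ubiquitin-like modifier, was 2.83 in dog 7 and -1.80 to 0.33 in the other dogs.

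Further members were named after their values were seen. HERC5, the ligase that attaches ISG15, was 2.42 in dog 7 and -0.90 to 0.05 elsewhere. DDX58, a sensor of viral RNA, was 2.64 in dog 7 and at most 0.12 elsewhere. The smallest SD of the list was that of IFIT3, at 0.206, and it too was highest in dog 7, at 0.36. CXCL10, OASL, IFI6 and IFIT5 were not. CXCL10, OASL and IFI6 were 0.30, 0.40 and 0.29 in dog 7, against 0.46, 0.49 and 0.64 in their highest dog, and IFIT5 had an SD of 0.217. Without dog 7 the median SD of the list was 0.359 and its median pairwise r 0.058, so the common variation of the list rests on this dog. In AD dogs, the list level on the same scale ranged from -0.60 to 1.92, with a median of -0.12. No member of any of the 19 lists passed the variation test or the test against the pool.

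The red cell list was the second of these, with 21 measured members of 30 listed, a median SD of 0.738 and a median pairwise r of 0.595. Its level was 0.93 and 0.61 in dogs 1 and 6, 0.19 and 0.06 in dogs 8 and 7, and -0.21, -0.39, -0.47 and -0.72 in dogs 5, 4, 3 and 2. Of the 21 members, 12 were highest in dog 1 and 11 were lowest in dog 2. Without dog 1 the median SD was 0.584 and the median r 0.487, and without dog 5 the median r was 0.706. In AD dogs the level ranged from -1.02 to 1.04, with a median of 0.38.

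ALAS2, the first enzyme of heme synthesis in red cells, was 1.51, -2.11, -0.73, -0.78, -0.51, 0.55, -0.26 and 0.60 in dogs 1 to 8. FECH, the last enzyme of that pathway, was 1.60 in dog 1 and -2.06 in dog 2. AHSP, the chaperone of alpha globin, was 0.85 in dog 1 and -2.51 and -2.08 in dogs 2 and 3. BPGM, which makes the regulator of oxygen release, was 2.26 in dog 1 and -0.97 in dog 3. The lowest SD of the list was that of BNIP3L, a protein of mitochondrial clearance, at 0.194. FECH, AHSP and BPGM were chosen after their values were seen.

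Of the 21 members, RHAG and XK ran against the rest of the list. RHAG, a part of the Rh complex of the red cell membrane, had r = -0.97 to the other members, and XK, a membrane protein of red cells, had r = -0.67. RHAG was -0.44 in dog 1 and 0.64 in dog 2. A second RHAG probe followed it with r = 0.976, while the dimmest, with a median dog signal of 195, had r = -0.61 and was highest in dog 6, at 1.06. The median dog signal of the brightest RHAG probe was 405000, not marked as saturated, and its SD was 0.182 in the dog's channel and 0.294 in the reference channel. Whether so bright a probe keeps a linear ratio was not tested.

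Genes outside the list had the red cell profile as well. ISCA1, which assembles iron-sulfur clusters, had r = 0.974 with the list level over the 8 dogs, and was 2.27 in dog 1 and -2.11 in dog 2. MINPP1, a phosphatase of inositol phosphates, had r = 0.984 and was 1.56 in dog 1 and -2.39 in dog 2. RNF11, a ubiquitin ligase, had r = 0.973 and was 1.45 in dog 1 and -2.10 in dog 2. These coefficients describe 8 arrays of which dogs 1, 2 and 6 are the extremes. Among the 100 genes of highest SD, dog 1 was the farthest from the median in 49 and the highest in 53, and dog 2 was the lowest in 50. The log2 ratios of dogs 1 and 2 had the lowest correlation of all pairs of arrays over the kept probes, at -0.346, and those of dogs 5 and 7 the highest, at 0.486. The dye of each channel is stated in the methods, so the direction was kept. Between dogs the Cy5 signals correlated at 0.937 to 0.988, and the Cy3 signals of the pool at 0.987 to 0.994.

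**Figure D3:**
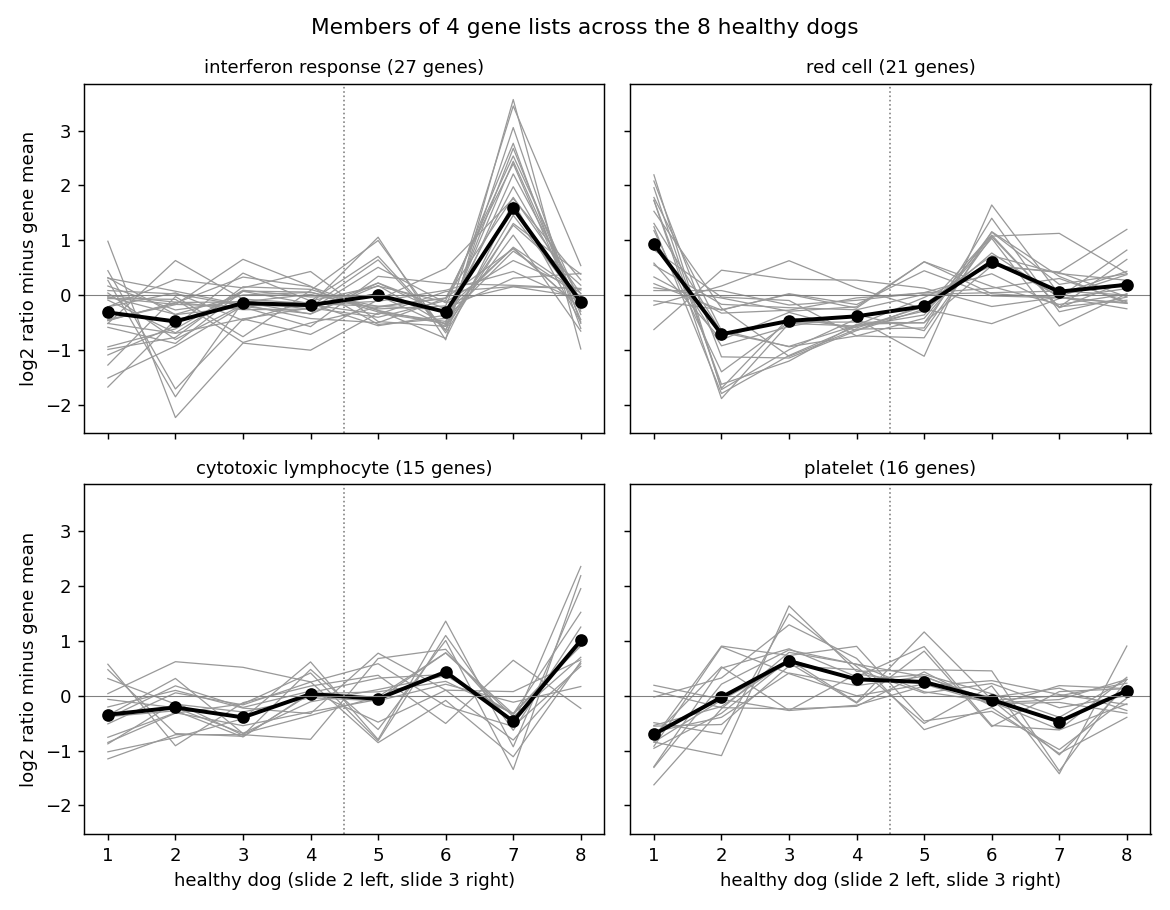
Log2 ratio minus the gene's mean over the 8 dogs (vertical axis) in each healthy dog (horizontal axis, slide 2 left and slide 3 right of the dotted line) for the members of the interferon response, red cell, cytotoxic lymphocyte and platelet lists. Thin lines are genes and the thick line is their mean, which peaks at 1.58 in dog 7, at 0.93 in dog 1, at 1.01 in dog 8 and at 0.64 in dog 3.

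The cytotoxic lymphocyte list, with 15 measured members of 22, had a median SD of 0.546 and a median pairwise r of 0.549. Its level was 1.01 in dog 8, 0.44 in dog 6, 0.03 in dog 4 and -0.47 to -0.06 in the others. The highest value was that of dog 8 in 9 of the 15 members. CCL5, a chemokine stored by cytotoxic cells, was 1.34 in dog 8, -0.34 and -0.18 in dogs 5 and 6 and between -2.18 and -1.54 in the other 5. GZMA, a granzyme, was 2.02 in dog 8, 0.83 in dog 6 and -1.52 in dog 7. KLRD1, a receptor of natural killer cells, was 1.48 in dog 8, 0.89 in dog 6 and -1.50 in dog 1. EOMES, a transcription factor of these cells, had the lowest SD, at 0.209. TBX21 ran against the list, with r = -0.44 to the other members. It was -0.47 in dog 8 and highest in dog 7, at 0.41. Without dog 8 the median pairwise r was 0.294 and the median SD 0.492. GZMA, KLRD1 and TBX21 were chosen after their values were seen.

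The platelet list, with 16 measured members of 22, had a median SD of 0.617 and a median pairwise r of 0.46. Its level was 0.64 in dog 3, 0.30 in dog 4, 0.25 in dog 5, and -0.47 and -0.71 in dogs 7 and 1. In 9 of the 16 members dog 1 was the lowest. MMRN1, a carrier of factor V in platelets, had the highest SD of the list, at 1.01, and was 1.46 in dog 3 and -1.56 in dog 7. ITGB3, the beta chain of the fibrinogen receptor, was 0.97 in dog 3 and -1.18 in dog 1, and GP1BA, of the receptor for von Willebrand factor, was 0.89 and -1.53 in the same dogs. The lowest SD was that of GUCY1B3, at 0.199. Without dog 1 the median SD was 0.438 and the median pairwise r 0.324. ITGB3 and GP1BA were chosen after their values were seen.

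The ribosomal protein list, with 50 measured members of 76, had a median SD of 0.32, above that of all eligible genes, and a median pairwise r of 0.606. Its level was -0.46 in dog 5 and 0.34 in dog 8, and 33 of the 50 members were lowest in dog 5. The median of its members' mean log2 ratios was -0.23. RPLP2 had the highest SD, at 0.751, and was -1.39 in dog 5. The heat shock list, with 13 of 18 measured, was 0.54 in dog 1 and at most 0.02 elsewhere, and 8 of its members were highest in dog 1. DNAJB1, a co-chaperone, had its highest SD, at 0.791, and was 1.57 in dog 1 and 0.47 or less in the others, while HSP90AB1 had the lowest, at 0.17. BAG3, chosen after its values were seen, ran against the list and was lowest in dog 1, at -0.23. Its r to the other members was -0.62, and that of HSP90AB1 was -0.18. The median SD of this list was 0.366 and its median pairwise r 0.29, against 0.258 and -0.042 without dog 1.

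The lists of other leukocytes varied less together. The neutrophil list (20 of 28 measured) had a median SD of 0.423 and a median pairwise r of 0.235, which was 0.051 without dog 8. Its level was -0.41 in dog 8, the lowest dog in 7 of its 20 members, and 0.28 in dog 7. MMP8, a collagenase of neutrophil granules, had its highest SD, at 0.712, and was 1.44 and 1.34 in dogs 2 and 7 and -0.51 in dog 8. S100A12, a calcium-binding protein of these cells, had its lowest, at 0.191. The monocyte list (16 of 16) had a median SD of 0.39 and a median pairwise r of 0.117 (0.027 without dog 8 and 0.265 without dog 5), and again dog 8 was the lowest in 6 members. CX3CR1, the fractalkine receptor, led it with an SD of 0.897, at 1.42 and 1.23 in dogs 2 and 6 and -0.91 in dog 5.

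The T cell list (17 of 22 measured) had a median SD of 0.403 and a median pairwise r of 0.125 (0.028 without dog 7 and 0.242 without dog 2). ZAP70, a kinase of the T cell receptor, was its most variable member, at 1.58 in dog 1 and -1.05 in dog 2, yet its other probe had an SD of 0.347 and r = -0.10 with this one. BCL11B, a factor of T cell identity, had the lowest SD, at 0.198. The B cell list (11 of 18) had a median SD of 0.361 and a median pairwise r of 0.147 (-0.009 without dog 6 and 0.274 without dog 1). PAX5, the factor that fixes the lineage, had its lowest SD, at 0.23. The plasma cell list (5 of 9) had a median SD of 0.344 and a median pairwise r of 0.447, which was 0.187 without dog 3 and 0.273 without dog 6. Its level was highest in dog 3, at 0.59. IGJ, the joining chain of IgA and IgM, was 1.81 in dog 3, 1.05 in dog 1 and -0.45 in dog 5, and XBP1, a factor of secretory cells, had an SD of 0.198.

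The list of eosinophils, basophils and mast cells (7 of 16 measured) had a median SD of 0.454 and a median pairwise r of -0.057, although a pair within it, CCR3 and IL5RA, is described below with a high r. ALOX15, a lipoxygenase of eosinophils, was 2.53 and 1.60 in dogs 7 and 8 and at most 0.30 in the other 6. GATA2, a factor of the mast cell and basophil lineages, had the lowest SD, at 0.184. The MHC list (18 of 31) had a median SD of 0.368 and a median pairwise r of 0.423, and 9 of its members were lowest in dog 6. Its class I member DLA-79 was 0.57 in dog 8 and -1.29 to -0.17 in the other dogs, and DLA88 had the lowest SD, at 0.178. Alleles of these genes differ between dogs, and whether the probes bind all of them was not tested.

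Cell division genes (24 of 27 measured) had a median SD of 0.4 and a median pairwise r of 0.233, which was 0.075 without dog 1, and 10 of the 24 were highest in dog 1. AURKB, a kinase of chromosome segregation, was 1.31 in dog 1 and -1.09 and -1.02 in dogs 3 and 2. Its other probe did not follow (r = 0.29, SD 0.188). CDT1, a licensing factor of replication, had the lowest SD, at 0.164. Immediate early and NF-kB feedback genes (31 of 39) had a median SD of 0.328 and a median pairwise r of -0.06. IL8, a neutrophil chemokine, was the most variable of them, at 0.44 in dog 3 and -1.95 and -1.31 in dogs 7 and 5, and DUSP5, a phosphatase of ERK, the most even, at 0.144.

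Glucocorticoid response genes (12 of 13 measured) had a median SD of 0.408 and a median pairwise r of -0.056. MT2A, a metallothionein, ranged from -2.02 in dog 1 to 0.66 in dog 6, although its other probe had r = -0.55 with this one. KLF9, a factor induced by cortisol, was the most even, at 0.212. The list of skin, vessel and connective tissue (11 of 14) had a median SD of 0.26, under that of all eligible genes, and its SDs ran from 0.146 for VWF, the von Willebrand factor, to 1.34 for ACTA2. Of its 11 members, 10 were well above background in both channels on all 8 arrays, keratins among them. The same held for 10950 of all 11145 genes, so this does not set the list apart.

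Reference genes used to normalize PCR (14 of 18 measured) had a median SD of 0.332, above that of all eligible genes, and a median pairwise r of 0.288. ACTB, the cytoplasmic actin, had an SD of 0.418, and B2M, the light chain of MHC class I, 0.556. GAPDH, a glycolytic enzyme, had 0.34. SDHA, a subunit of succinate dehydrogenase, was the most even, with an SD of 0.20 and values of -0.10 to 0.53. Reference genes other than SDHA were chosen after their values were seen.

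Of the sex chromosome list 4 of 16 genes were measured, with a median SD of 0.591 and a median pairwise r of -0.201. KDM5D, a histone demethylase on the Y chromosome, was -1.12, -0.94 and -1.01 in dogs 2, 3 and 6 and between 0.70 and 1.13 in dogs 1, 4, 5, 7 and 8. The groups of 3 and 5 dogs were read from these values. The study counted 3 females and 5 males among its healthy dogs. Since the labels give no sex for a given dog, a link between sex and these groups was not tested. The SD of KDM5D was 1.03 over all dogs and 0.0776 in the reference channel. DDX3X, an RNA helicase on the X chromosome, had the lowest SD of the list, at 0.402. In AD dogs KDM5D was under 0 in 14 of 20, with a range of -1.44 to 1.47.

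**Figure D4:**
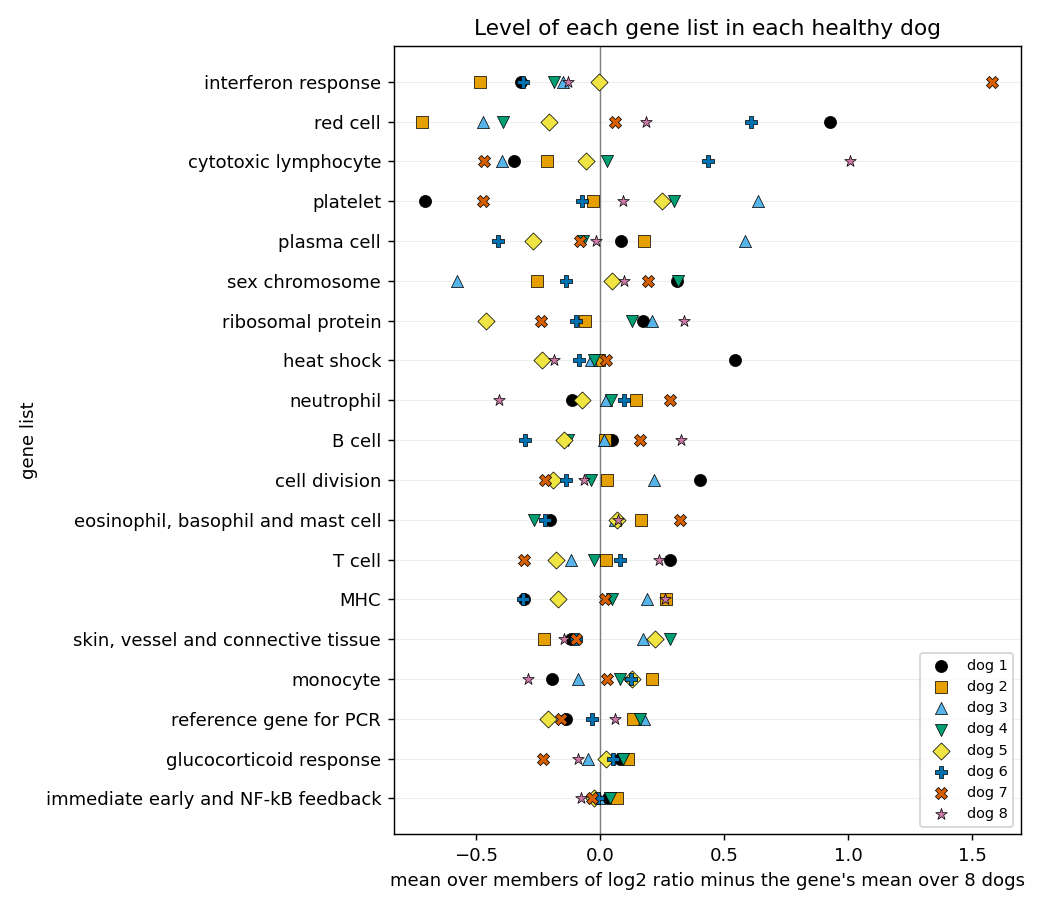
Level of each of the 19 gene lists in each healthy dog (horizontal axis, mean over members of the log2 ratio minus the gene's mean over the 8 dogs), with lists ordered from the widest range to the narrowest. The interferon response list spans 2.06 with dog 7 far right, and the immediate early and NF-kB feedback list spans 0.143.

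The genes that differed least between healthy dogs were spread over many functions. XAB2, a protein of splicing and DNA repair, had the lowest SD, at 0.0536, with values of -0.03 to 0.14. CLK3, a kinase of splicing factors, had 0.059 and lay between -0.20 and -0.04 in every dog. VAPB, a membrane anchor of the endoplasmic reticulum, had 0.06 and lay between 0.01 and 0.18. Next came OR13C2, PGM3, APOBEC2, KLHL28, AGPAT1, NXPH1 and ST6GAL1, with SDs of 0.0621 to 0.0731. In these 10 genes the highest dog was 1.11-fold to 1.18-fold above the lowest. Other probes of these genes were less even. A second XAB2 probe had an SD of 0.289, a second CLK3 probe 0.155 and a second VAPB probe 0.367. Single channels of these 10 probes varied more than the ratio, with dog SDs of 0.106 to 0.289 and reference SDs of 0.0968 to 0.335.

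To ask which genes move together across dogs, 24 pairs of partner genes were listed, of which 17 had both genes measured. Pearson's r and Spearman's rho over the 8 dogs were tested by exact two-sided permutation, with Benjamini-Hochberg adjustment over the 17 pairs. 3 pairs passed by r, and the same count passed by rho, each at an adjusted p of 0.041. The smallest p that 8 dogs allow is 2.48e-05. The pairs were chosen with earlier results of these data known, so their p-values describe these dogs and are no independent support.

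CCR3 and IL5RA, receptors for eotaxin and interleukin 5 on eosinophils, had r = 0.945 (exact permutation p = 0.000496, adjusted 0.00843) and rho = 0.881 (p = 0.00724). CCR3 was 0.92 in dog 2 and -0.97 and -1.09 in dogs 6 and 8, and IL5RA was 0.74 in dog 2 and -0.54 and -0.61 in those dogs. With dogs 8 and 2, the farthest from the median of CCR3, left out, r was 0.942, and with slide means removed it was 0.914. CD14, the endotoxin co-receptor, and CSF1R, the receptor of the monocyte growth factor, had r = 0.941 (exact permutation p = 0.00154, adjusted 0.0131) and rho = 0.905 (p = 0.00456). Dog 5 was the highest for both, at 0.97 and 0.55, and dog 8 the lowest, at -0.42 and -0.52. Without dogs 5 and 8 r fell to 0.594, so the size of this relation rests on them.

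ALAS2 and SLC4A1, the anion exchanger of the red cell membrane, had r = 0.88 (exact permutation p = 0.0025, adjusted 0.0142) and rho = 0.881 (p = 0.00724). SLC4A1 was 0.64 and 0.78 in dogs 1 and 6 and -0.76 in dog 2, as for ALAS2 above. Without dogs 1 and 2 r was 0.845, and with slide means removed 0.9.

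MX1 and ISG15 had r = 0.792 (exact permutation p = 0.054, adjusted 0.214) and rho = 0.333 (p = 0.428), and without dogs 7 and 5 r was 0.089, so the relation rests on dog 7. HSPH1 and DNAJB1, chaperones of the heat shock response, had r = 0.733 (exact permutation p = 0.0711, adjusted 0.214) and rho = 0.405 (p = 0.327), and without dog 1 r was -0.102. CXCR2 and CSF3R, receptors of neutrophils, had r = 0.667 (exact permutation p = 0.0763, adjusted 0.214). FKBP5 and TSC22D3, targets of the glucocorticoid receptor, had r = 0.639 (exact permutation p = 0.088, adjusted 0.214), and -0.062 with slide means removed.

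The other 10 pairs had r between -0.355 and 0.57, with adjusted p of 0.31 to 0.976 by exact permutation. DLA-DRA and CD74, the class II chain and its invariant chain, had r = 0.57. S100A8 and S100A12 had r = 0.477, CD3E and CD3D, chains of the T cell receptor complex, 0.47, and MMP8 and LTF, proteins of neutrophil granules, 0.377. CD8A and CD8B, which form the CD8 co-receptor, had r = 0.214, and 0.755 with slide means removed. CD79A and MS4A1, both of B cells, had r = -0.013, and 0.81 without dogs 5 and 6. FCER1A and MS4A2, chains of the IgE receptor, had r = 0.068, and FOS and DUSP1, early response genes, had r = 0.118. Across cell types, CD3E had r = -0.355 with S100A12 and -0.042 with CD79A.

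**Figure D5:**
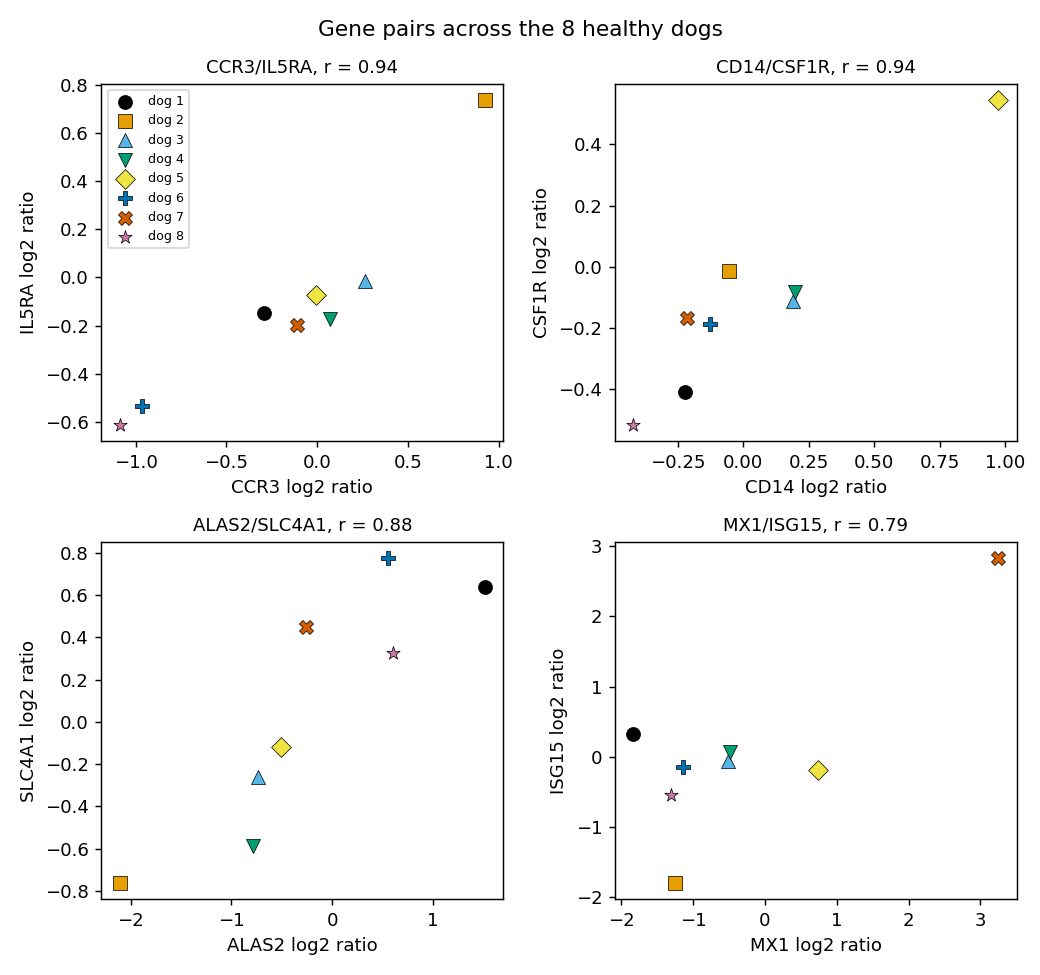
Log2 ratios of the paired genes in the 8 healthy dogs (1 symbol a dog, log2 ratio on both axes, array median at 0) for the 3 pairs that passed the test and for MX1 and ISG15. In the last panel dog 7, at 3.25 and 2.83, stands alone and sets the coefficient of 0.792.

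The 3 genes with the highest SD were no closer to other genes than the median gene was. Over eligible genes, the r of a gene to its neighbour of rank 5 had a median of 0.954 and a range of 0.786 to 0.999. The 5 nearest genes of EMR2 were APBB1IP, WDR82, TBC1D30, IKZF4 and ATP10D, with r of 0.935 to 0.908. Those of ATP6V1E2 were PPAPDC2, TMEM8A, NEIL1, SH3BP5L and FXYD6, with r of 0.952 to 0.936. Those of CEACAM23 were C18H7orf57, GPA33, FCER1G, EPN2 and PPP4C, with r of 0.953 to 0.924. EMR2 had no list level with r above 0.46, which was that of eosinophils, basophils and mast cells.

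After adjustment, 1 probe set the healthy dogs apart from the pool of other healthy dogs. All 8 dogs were above the pool at 516 of 29213 probes with a value on every array (1.77%), and below it at 623 (2.13%). Among eligible genes the counts were 165 of 10950 (1.51%) above and 272 (2.48%) below. By limma with Benjamini-Hochberg adjustment, 1 of 29233 probes (0.00342%) passed an adjusted p of 0.05. An unadjusted p under 0.05 was found at 4658 of the 29233 probes, 2015 higher and 2643 lower. In the test between slides, described below, the same unadjusted limit was met at 1681 probes. The probe that passed carries no gene symbol and is annotated as TC76297. Its values in dogs 1 to 8 were 0.87, 0.56, 0.82, 0.72, 0.67, 0.65, 0.56 and 1.18, with a mean of 0.75 (standard error 0.088) and an adjusted p of 0.041. It was well above background in the reference channel on only 5 of the 8 arrays. None of the eligible genes passed. With any of dogs 1, 3, 4, 5, 6, 7 or 8 left out the count was 0, and without dog 2 it was 3.

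Without a test, the eligible genes with the highest means among those above the pool in all 8 dogs were ANKRD23, TMEM2, NUFIP2, EPHB3 and PTP4A2, chosen here after their values were seen. ANKRD23, a muscle ankyrin repeat protein, was 0.12, 1.08, 1.00, 0.92, 0.98, 0.70, 0.33 and 0.40 in dogs 1 to 8 (mean 0.69 ± 0.36, SD, n = 8). The median dog signal of this probe was 309000, not marked as saturated, and its SD was 0.213 in the dog's channel and 0.241 in the reference channel. Another of its probes ran opposite, with r = -0.87 and 1.04 in dog 1 against -0.72 and -0.73 in dogs 2 and 3. TMEM2, a cell surface hyaluronidase, had a mean of 0.67 ± 0.28 (SD, n = 8), from 0.38 in dog 1 to 1.28 in dog 5. Its 3 other kept probes were at -0.03, -0.31 and -0.68 in dog 1, so none of them lay above the pool in every dog. NUFIP2, an RNA-binding protein, had a mean of 0.65 ± 0.33 (SD, n = 8), and its other probe was -0.26 in dog 1. EPHB3, an ephrin receptor, had a mean of 0.60 ± 0.36 (SD, n = 8), with 1.45 in dog 5 and 0.29 to 0.60 in the others. PTP4A2, a phosphatase, had a mean of 0.55 ± 0.26 (SD, n = 8), and its other probe had r = -0.28 with it.

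Several of these probes share a simple repeat. The letters GTGTGTGTGTGT, searched on both strands, occur in the brightest probes of 10 of the 10950 eligible genes (0.0913%), in 7 of them on the strand of the probe itself. These 7 genes were ANKRD23, TMEM2, NUFIP2, PADI2, PTP4A2, SMAD2 and SEPW1, and all had means above the pool, from 0.43 to 0.69. Of the 10 genes with the highest means among those above the pool in every dog, 5 were among these 7. The mean of the 7 genes, each minus its mean over dogs, was 0.63 in dog 5 and -0.49 in dog 1, and between -0.23 and 0.18 in the others. The 3 genes with the repeat on the opposite strand, DCUN1D1, UFL1 and SCOC, had means of 0.33 to 0.40, and on the same measure were at 1.5 in dog 5. This search was chosen after the probes had been seen. Whether the repeat has a part in these values was not tested.

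The lowest mean among genes below the pool in all 8 dogs was that of TNFAIP8L3, a lipid transfer protein, at -1.13 ± 0.70 (SD, n = 8; adjusted p = 0.086 by limma). Its values ran from -2.23 in dog 7 to -0.27 in dog 8. PYY, the gut peptide YY, had a mean of -0.78 ± 0.39 (SD, n = 8) and was -0.07 in dog 7. NIM1, a kinase, had a mean of -0.78 ± 0.57 (SD, n = 8), and DDR1, a collagen receptor, had -0.70 ± 0.63 (SD, n = 8) with -2.09 in dog 7. COX7A1, a subunit of cytochrome c oxidase, had a mean of -0.77 ± 0.41 (SD, n = 8). CA2, a carbonic anhydrase, had a mean of -0.69 ± 0.42 (SD, n = 8), from -1.32 in dog 5 to -0.12 in dog 2. RND1, a small GTPase, had a mean of -0.62 ± 0.28 (SD, n = 8) and was -0.21 in dog 3 and -0.95 in dog 6. Over the 10 genes with the lowest means among those below the pool in every dog, the adjusted p was 0.086 to 0.145 by limma, and those named here were chosen after their values were seen.

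Between the slides no probe passed. With limma, 0 of 29233 probes (0%) differed between dogs 1 to 4 and dogs 5 to 8, with no adjusted p under 0.777 and 1681 probes (5.75%) at an unadjusted p under 0.05. On simulated data this test found 0 of 50 probes shifted by 0.5 and 26 of 50 shifted by 1. The difference of slide 3 minus slide 2 was 2.71 for EMR2 (unadjusted p = 0.0151, adjusted p = 0.777). Without dog 2 this difference was 4.01 and passed.

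The AD dogs, set beside the healthy ones without a test since no slide held both, covered most of the same ranges. MX1 ranged from -3.10 to 4.08 and CMPK2 from -1.47 to 4.23 in AD dogs, with 1 and 2 of 20 dogs above 2. RAB15 was above 1 in 4 of 20. The level of the cytotoxic lymphocyte list ranged from -0.47 to 0.89 and that of the platelet list from -1.07 to 0.45. The median SD over eligible genes was 0.412 in AD dogs and 0.339 without those of scan day 5, which had fewer probes above background, against 0.29 in the healthy dogs. The healthy arrays were all scanned on day 2. Those of AD dogs lay on more slides and were scanned on days 1, 3, 4 and 5. The part of slide and scan day in the larger SD was not tested.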

How the data were processed

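Blood RNA of 8 healthy dogs and 20 AD dogs was measured on two-color 4x44K canine arrays. The deposited scanner files hold spot intensities that the authors extracted with Agilent Feature Extraction, with background subtraction and Lowess dye normalization. The version is 10.7.3.1 in the submitters' notes and 10.10.1.1 in the file headers. The deposited table of processed values holds a log10 ratio of the channels per the file headers, used as an alternative. Control spots were left out, marked spots were set to missing and spots of 1 probe averaged. Log2 ratios of the processed signals were centered on each array's median over probes with a median dog signal above 100, with values on at least 6 arrays.

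Groups were taken from the labels. R 4.3.3 and limma 3.58.1 were used. Tests were lmFit and eBayes against the pool and between slides, and an F test of each variance against a robust trended prior, adjusted by Benjamini-Hochberg over 29233 probes at 0.05. Each was tested on simulated data. With 8 arrays, their number limits the precision. The tests against the pool and between slides set a mean or a difference against the spread between dogs. They cover neither dye bias nor the spread of the pool. The F test sets a probe's variance against that of other probes, and the p-values of pairs come from permuting dogs. Named were the 15 highest and 10 lowest SDs, the extremes of each list, the genes of the pairs, up to 10 genes on each side of the pool past its test (there were 0), and 5 neighbours each of the 3 most variable genes. The members, lists and pairs were chosen with earlier results of these data known, so no list and no pair is independent support. Of 11145 symbols 10221 were in the RefSeq gene table, 75 only as a synonym, and 957 came from the description column. Alternatives varied the signal filter, outlier marks, background correction, source of values, centring, prior, slide, reference use, probe choice and each dog left out. Some genes that the naming rule selects are not reported here.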

Additional observations from a re-analysis of the deposited data

Results flagged for a closer look

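In 106 named genes and 19 list levels, a dog was marked when its gap to the nearest other dog was a larger share of the whole range than Dixon's critical value for 8 samples allows. Chance alone marks about 5% of groups, but these genes were named for their extremes in the same dogs, so that rate is no measure for them. Over all 10950 eligible genes 684 (6.25%) were marked, and of those looked at here 12 genes and 2 list levels. In dog 7 the level of the interferon response list was 1.58, ISG15 was 2.83, IFIT3 was 0.36 and DDR1, a collagen receptor, was -2.09. In dog 5, EPHB3 was 1.45, SMAD2, a mediator of TGF-beta signals, was 1.35, TMEM2 was 1.28, PTP4A2 was 1.12, CD14 was 0.97 and CSF1R was 0.55. The probes of SMAD2, TMEM2 and PTP4A2 hold the GT repeat described above, and other kept probes of SMAD2 and PTP4A2 had r of -0.16 and -0.28 with these values. In dog 1 the level of the heat shock list was 0.54 and HSPH1 was 1.12. In dog 2 IL5RA was 0.74, and in dog 3 XBP1 was 0.48. Dogs 1 and 2 lay on the same slide as dogs 3 and 4, and dog 5 on that of dog 7. The part of slide or labelling in these values was not tested.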

How the results depend on the processing

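The count of probes that passed the test against the pool (1) was 1209 without the filter on signal, of which 1023 had a median dog signal of at most 100 and 179 were well above background in both channels on all arrays. It was 0 with only probes well above background, 7 with normexp and loess (ANKRD23, TMEM2 and NUFIP2 among them), 2 on slide 2 alone (CCL5 at -1.87 and DAGLB at -1.56), 0 on slide 3 alone, and 0 to 3 with a dog left out. It was 0 without any of dogs 1, 3, 4, 5, 6, 7 or 8 and 3 without dog 2 (DDX6, NCCRP1 and TC76297). The variation test passed 2 probes without a symbol (TC49822 and DT539304) with SDs within slides and 0 otherwise. The slide test passed 0 to 1 with a dog left out: EMR2 without dog 2, and TC66792 without dog 6. Pairs passed numbered 1 to 4 with a dog left out, with 1 without dog 5 or dog 8 and 4 without dog 3, and 3 under the other alternatives. The share of probes with the larger SD in the dog's channel was 76.7% without the filter and 83.6% to 89.3% with a dog left out.

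Some pairs turned sign, and the cause was not tested. Over all dogs their r ran from -0.042 for CD3E and CD79A to 0.639 for FKBP5 and TSC22D3 and 0.733 for HSPH1 and DNAJB1. The r of FOS and DUSP1 was -0.107 to 0.302 and the r of FCER1A and MS4A2 -0.201 to 0.368 with a dog left out. With slide means removed they were -0.615 and -0.200, and the r of FKBP5 and TSC22D3 was -0.062. The r of FCER1A and MS4A2 was -0.123 with the mean of all probes. The r of CD79A and MS4A1 was -0.244 to 0.857 with a dog left out, 0.121 in the dog's channel alone and 0.024 with slide means removed. The r of CD3E and CD79A was -0.174 to 0.222 and 0.103. The r of HSPH1 and DNAJB1 was -0.100 to 0.920, and the r of MMP8 and LTF -0.080 to 0.761, with a dog left out. No paired analysis was possible because the healthy dogs are 1 group and their numbers name different dogs. With 8 arrays on 2 slides and no dye swap, neither slide nor dye can be separated from dogs.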
